A study of Mus musculus with 96 samples.

Results

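Leukocyte and macrophage marker genes were followed through every comparison of a mouse study that crossed irradiation with diet. The set held 9 genes, Itgam, Mrc1, Ptprc, Fcgr3, C1qc, S100a8, Coro1a, Irf5 and Cx3cl1, against 12371 genes tested for RNA, and its rows were found by gene symbol in all 14 deposited tables. The genes were picked with values of these tables known, so those values are given as a description. Of 40336 listed rows, 21 belonged to the set, with 5 in RNA tables, 9 in tables of methylated DNA capture and 7 in bisulfite tables of satellite cells. Each of the 9 genes stood in at least 1 table, and 2 of them, Itgam and Cx3cl1, stood in an RNA table and in a methylation table.

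The animals were C57Bl/6 mice, irradiated on a high fat diet, irradiated on chow, or controls on either diet. Muscle stem cells, called satellite cells, gave RNA sequencing libraries, libraries of methylated DNA pulled down on a methyl-binding domain (MBD), and reduced representation bisulfite sequencing (RRBS) libraries, which read methylation near MspI cut sites, with 6 samples in each of the 4 groups of each assay. The stromal vascular fraction, the mixed non-fat cells of adipose tissue, was profiled by RRBS with 7 irradiated high fat diet, 4 irradiated chow, 7 control high fat diet and 6 control chow samples. The title poses the question of how ionizing radiation adds to the action of fat-rich feeding on progenitor cells of muscle and fat. The sources used here do not give the radiation dose, the age or sex, the time after irradiation, or which samples shared an animal. All 14 tables hold the authors' statistics for comparisons and no value of a single sample, so no spread between samples can be shown and the depth is unknown.

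Blood cells that enter or reside in muscle carry surface proteins that muscle cells largely lack. Ptprc (CD45), a tyrosine phosphatase, and Coro1a, an actin-binding coronin, mark nearly all leukocytes. Itgam (CD11b, an integrin chain that pairs with Itgb2) marks myeloid cells, Mrc1 (CD206, a mannose receptor) marks many tissue macrophages, and Fcgr3 (CD16) binds the constant part of antibodies. C1qc is a chain of complement C1q and is made largely by macrophages. S100a8 is a calcium-binding protein of neutrophils and monocytes, and Irf5 is a transcription factor that drives inflammatory cytokine genes. Cx3cl1 (fractalkine) differs from the others: it is a membrane-bound chemokine made by endothelial, neuronal and other tissue cells, and the leukocytes carry its receptor Cx3cr1. In muscle, macrophages clear debris after injury and signal to satellite cells.

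Promoter sequences are shown for the 4 genes of the set listed in an RNA table, since the RNA results turn on them. Each window runs from 250 bases before to 50 bases after a gene start, from RefSeq, assembly GRCm38.p6, 5′ to 3′ along the gene. All 9 genes had such a window. In Itgam (chr7:128062390-128062689, plus strand) and Mrc1 (chr2:14229164-14229463, plus strand), capitals mark GAGGAA on either strand, the purine-rich core bound by the myeloid factor PU.1.
Itgam: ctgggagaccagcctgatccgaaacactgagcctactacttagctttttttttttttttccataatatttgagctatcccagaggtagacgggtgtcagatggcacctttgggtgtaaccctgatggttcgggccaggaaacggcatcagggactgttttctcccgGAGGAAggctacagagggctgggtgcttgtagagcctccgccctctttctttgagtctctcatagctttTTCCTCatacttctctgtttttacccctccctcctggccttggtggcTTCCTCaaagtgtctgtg
Mrc1: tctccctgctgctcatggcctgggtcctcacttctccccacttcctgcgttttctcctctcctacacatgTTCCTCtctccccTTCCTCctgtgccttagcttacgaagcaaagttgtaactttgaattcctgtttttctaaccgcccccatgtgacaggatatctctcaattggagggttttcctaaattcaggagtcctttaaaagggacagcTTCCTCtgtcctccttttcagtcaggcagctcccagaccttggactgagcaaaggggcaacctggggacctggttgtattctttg
Each of these windows holds 3 copies of GAGGAA, counted on both strands and not overlapping. The motif occurs at least once in 28.3% of 32817 promoter windows of the same length and at least 3 times in 0.686% of them. It is not particular to these genes in the set: the Cx3cl1 window holds 2 copies, not capitalised here, and the Irf5 window 0. Of the genes whose windows are not shown, S100a8 has 2 copies, Fcgr3 and C1qc 1, Ptprc 1 or 0 by window, and Coro1a 0. In Cx3cl1 (chr8:94771930-94772229, plus strand) and Irf5 (chr6:29526375-29526674, plus strand), capitals mark CG, the dinucleotide at which mouse DNA is methylated.
Cx3cl1: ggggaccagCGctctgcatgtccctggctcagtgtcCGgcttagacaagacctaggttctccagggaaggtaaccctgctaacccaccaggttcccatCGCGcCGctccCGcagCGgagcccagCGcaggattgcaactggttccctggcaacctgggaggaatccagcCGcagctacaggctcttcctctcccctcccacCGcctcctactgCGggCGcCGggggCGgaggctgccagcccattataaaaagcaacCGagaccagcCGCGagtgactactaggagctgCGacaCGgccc
Irf5: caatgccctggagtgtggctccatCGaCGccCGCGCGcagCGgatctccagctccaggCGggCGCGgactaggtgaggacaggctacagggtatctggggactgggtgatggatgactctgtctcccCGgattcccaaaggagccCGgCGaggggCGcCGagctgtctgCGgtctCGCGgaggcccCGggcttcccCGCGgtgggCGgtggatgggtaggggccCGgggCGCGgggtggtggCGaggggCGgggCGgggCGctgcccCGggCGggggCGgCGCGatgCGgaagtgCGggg
The Cx3cl1 window holds 19 CG dinucleotides and the Irf5 window 35, against 6 in Itgam, 3 in Mrc1 and a median of 7 over all windows. Fewer CG dinucleotides than in Cx3cl1 were counted in 72.0% of all windows, and fewer than in Irf5 in 93.0%. A match to these letters describes the window and is no evidence of binding.

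Irradiation was accompanied by lower RNA of the myeloid integrin chain Itgam and the mannose receptor Mrc1 and higher RNA of the chemokine Cx3cl1 in satellite cells. Over both diets, the authors' deposited table put 3 of the 9 genes under an adjusted p of 0.05, 2 of them lower and 1 higher after irradiation. Of all 12371 tested genes, 6.68% passed that threshold, 3.64% lower and 3.05% higher. The share of 3 in 9 cannot be read against this background, because the set was picked from these values. The deposited value over both diets is the sum of the effects on chow and on high fat diet, so it was divided by 2, and all such values here are means of the effects on the 2 diets, as log2 of irradiated over control. Standard errors are approximate, from the deposited likelihood ratio, and intervals are 95%. In bulk samples, fewer cells of a type and less RNA per cell cannot be told apart.

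Itgam (chr7:128062640-128118490, plus strand, in the authors' annotation) averaged -0.79 ± 0.25 log2 over both diets, computed from the authors' deposited table, which is 0.579 times the control level. Its interval ran from -1.29 to -0.29, and the authors' adjusted p from edgeR was 0.0375. Its mean abundance over the libraries was 0.85 log2 CPM (read counts scaled to library size), a low level, with an unknown number of reads behind it. Itgam was listed neither for chow nor for the high fat diet alone, and its absence limits each effect. Given the mean, the chow effect lay between -1.08 and -0.20 and the high fat diet effect between -1.37 and -0.49, if both diets carried the same standard error. These ranges follow from the fitted mean and the ends of the lists and carry no error of their own, and Itgam passed on neither diet alone.

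Mrc1 (chr2:14229392-14332057, plus strand) averaged -0.59 ± 0.19 log2 over both diets, computed from the authors' deposited table, a change of -33.4%. The interval was -0.95 to -0.22 and the authors' adjusted p from edgeR 0.0323, at a mean abundance of 1.63 log2 CPM. Absence from the tables for single diets placed the chow effect between -0.79 and -0.17 and the high fat diet effect between -0.999 and -0.38. The mannose receptor and the integrin chain thus moved the same way, with intervals that overlap.

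Irf5 (chr6:29526625-29537319, plus strand), the transcription factor, was listed on chow alone. In the authors' deposited table it stood 1.03 ± 0.32 log2 higher after irradiation, 2.04-fold, with an interval of 0.40 to 1.66. Its adjusted p of 0.0715 from edgeR did not pass 0.05, and its abundance was 0.20 log2 CPM. Under 0.1, 2 genes of the set stood higher on chow, Irf5 and Cx3cl1, where 1.01% of all tested genes did. Its absence from the lists over both diets and for the high fat diet alone placed the high fat diet effect between -1.23 and 0.095. That range takes the fitted chow value as exact and follows from which lists hold the gene, so a difference between the diets was not tested.

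Cx3cl1 (chr8:94772009-94782423, plus strand), the ligand, was the gene of the set with the lowest p for RNA. It averaged 0.84 ± 0.21 log2 over both diets, 1.78-fold, with an interval of 0.43 to 1.25, an adjusted p of 0.00431 from edgeR in the authors' deposited table and a mean abundance of 5.57 log2 CPM. On chow the effect was 1.07 ± 0.30, 2.09-fold, with an adjusted p of 0.0351 from edgeR in the authors' deposited table. It was the 1 gene of the set to pass 0.05 on chow, where 0.388% of all tested genes passed as higher. On the high fat diet Cx3cl1 was not listed, and the effect recovered by subtraction was 0.60 ± 0.29, with an interval of 0.028 to 1.18. The chow effect exceeded it by 0.46 ± 0.42, with an interval of -0.36 to 1.28 that holds 0, so a difference between diets was not shown. On the high fat diet alone, 0 of the 9 genes passed 0.05 or 0.1 in the authors' deposited table, and 0.0647% of all tested genes passed 0.05.

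**Figure D1:**
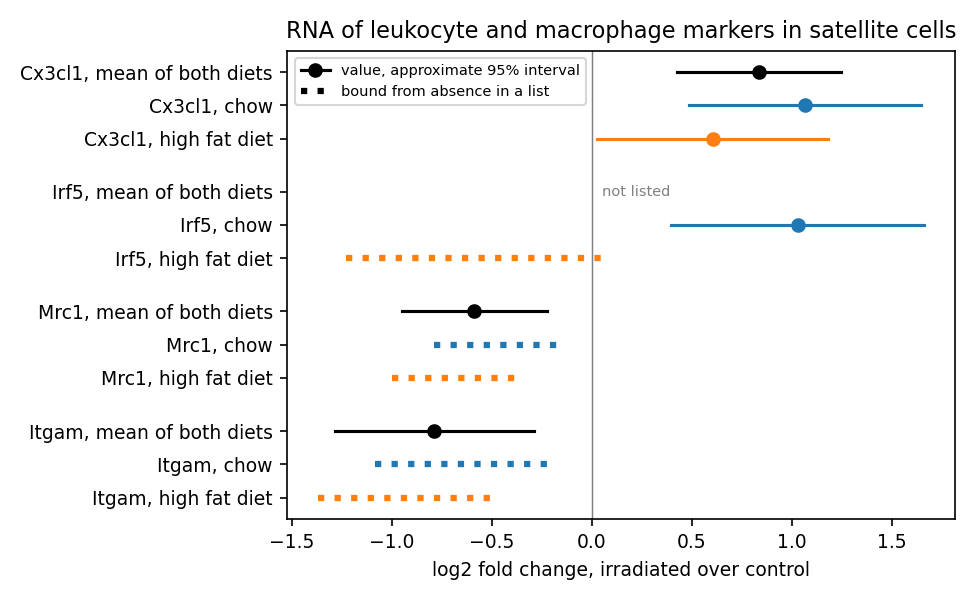
Log2 fold change of RNA in satellite cells, irradiated over control, for the 4 genes of the set listed in an RNA table. Points with solid lines are values with approximate 95% intervals, and dotted lines are ranges set by absence from a list, with no error of their own. Cx3cl1 lies right of 0 on both diets, Itgam and Mrc1 lie left of it, and the Irf5 range on the high fat diet ends at 0.095.

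Ptprc, Fcgr3, C1qc, S100a8 and Coro1a stood in none of the RNA tables. A gene is absent either because it was not among those tested or because its adjusted p was 0.1 or more, and these cannot be told apart. The tables ended at p-values of 0.0137 over both diets, 0.00260 on chow and 0.000139 on the high fat diet, so a change of unknown size in these genes is compatible with their absence. The general leukocyte markers Ptprc and Coro1a, the antibody receptor and the complement and neutrophil markers thus give no RNA value to set beside Itgam and Mrc1.

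Other genes of the same cell types were mostly absent from the RNA tables as well. They come from lists drawn up by cell type, but with earlier results of these data known, and the lists include all 9 genes of the set. Of 186 genes on 6 lists (pan-leukocyte, macrophage and monocyte, complement, neutrophil, lymphocyte, and chemokines with their receptors), 6 passed 0.05 over both diets in the authors' deposited table, 2 higher and 4 lower. That is 3.23% of the genes on the lists, beside 6.68% of all tested genes, and 3 of the 6 are genes of the set itself. The 186 genes include any that were not tested, so these 2 shares have unlike bases and cannot be compared directly. Among macrophage and monocyte genes, 3 of 47 were lower and 0 higher. They are Itgam, Mrc1 and Hmox1, a haem-degrading enzyme that many stressed cells also make. Among pan-leukocyte genes, 1 of 32 was higher and 0 lower. Of 17 complement and 18 neutrophil genes, 0 passed 0.05 or 0.1 by the authors' edgeR fit in either direction, and an absence may again mean that a gene was not tested. On chow the 6 lists gave 1 higher and 2 lower genes under 0.05, and on the high fat diet 0. Of all tested genes, 0.388% were higher on chow, and the share lower on chow was not computed. On the high fat diet 0.0647% of all tested genes passed in either direction.

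Cd53, a tetraspanin of leukocytes, averaged 1.18 ± 0.32 log2 over both diets, computed from the authors' deposited table, with an adjusted p of 0.0112 from edgeR and 4.32 log2 CPM. This pan-leukocyte gene therefore ran against Itgam and Mrc1. Absence from the tables for single diets placed its chow effect between 0.62 and 1.38 and its high fat diet effect between 0.99 and 1.74. Hmox1 averaged -0.57 ± 0.17 log2 in the same table, with an adjusted p of 0.0176 from edgeR, and its chow effect of -0.81 had an adjusted p of 0.0474.

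The lymphocyte list gave 1 lower gene of 27, Thy1, a surface glycoprotein that fibroblasts share. Thy1 averaged -1.37 ± 0.28 log2 over both diets, computed from the authors' deposited table, with -2.20 on chow (adjusted p = 0.000313 from edgeR) and a recovered -0.53 on the high fat diet. The chow effect minus the high fat diet effect was -1.67, with an interval of -2.76 to -0.57 that does not hold 0. The mean abundance of Thy1 was low, at 0.68 log2 CPM. Among genes of interferon regulatory factors and their targets, the family of Irf5, 1 of 25 passed, Ifi27 at -0.38 log2 with an adjusted p of 0.00956 from edgeR in the authors' deposited table. Among 48 chemokine and receptor genes, 1 passed, Cx3cl1 itself.

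Markers of the other cells that a satellite cell preparation can hold moved in the same comparison. Of all tested genes, 3.64% were lower over both diets and 3.05% higher, and the share lower on chow was not computed. The lists were chosen with earlier results of these data known, so their counts are a description. Of 11 fibroblast genes, 4 were lower over both diets in the authors' deposited table and 0 higher: Col1a2, a collagen chain, at -1.18, Dcn, a matrix proteoglycan, at -1.29, Col15a1 at -1.37 and Thy1. Of 15 satellite cell genes, 3 were lower and 0 higher, the cadherin Cdh15 at -0.46, the adhesion molecule Ncam1 at -0.41 and the myogenic factor Myog at -0.58. Their mean abundances were 9.10, 10.1 and 10.7 log2 CPM. That is the check the listed genes allow, and it concerns myogenic cells in general rather than satellite cells alone. Of 11 endothelial genes, 0 passed over both diets and 2 were lower on chow, Cdh5 at -3.03 (adjusted p = 0.0158 from edgeR in the authors' deposited table) and Pecam1 at -2.25 (adjusted p = 0.0498 from edgeR). Both had a low mean abundance, 0.33 log2 CPM for Cdh5 and 0.60 for Pecam1. By absence from the lists over both diets and for the high fat diet alone, the high fat diet range was 0.40 to 2.87 for Cdh5 and -0.043 to 2.51 for Pecam1. These ranges take the fitted chow values as exact and carry no error. Levels of these markers in single groups cannot be shown, and the part of other cell types in the Itgam, Mrc1 and Cx3cl1 values was not tested.

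**Figure D2:**
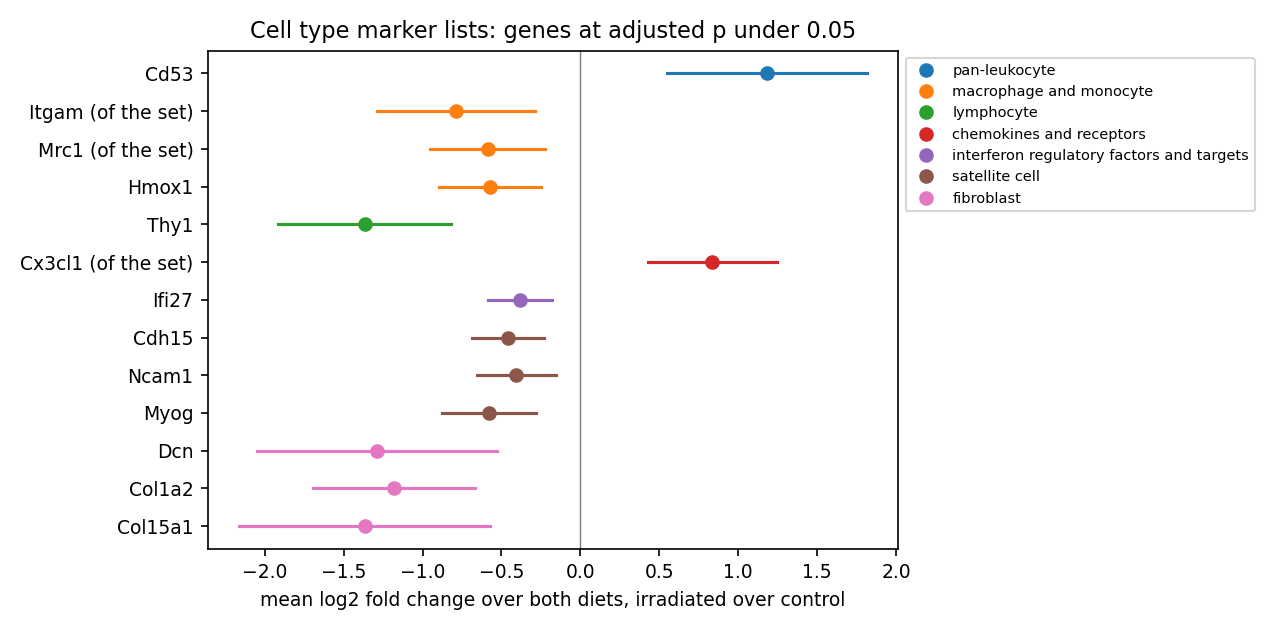
Mean log2 fold change over both diets, irradiated over control, with approximate 95% intervals, for every gene of the marker lists at an adjusted p under 0.05. Colours give the list, with Thy1 drawn once under lymphocytes although it is also on the fibroblast list. Cd53 and Cx3cl1 lie right of 0, and the macrophage, satellite cell and fibroblast genes lie left of it.

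Capture of methylated DNA listed 5 genes of the set with 9 regions. The entries of Itgam, Ptprc, C1qc and S100a8 came from the table of gene exons, and Fcgr3 came from the table of CpG islands. The 2 sides of the MBD contrast are named nowhere in the sources used here, so each log2 fold change is given as coded and tied to no treatment. Of the 7 exon rows, 6 were above 0, where 66.2% of all 2455 listed exon regions were, and both Fcgr3 islands were above 0, where 81.0% of 84 listed islands were. Since a gene with several transcripts has several rows that share reads, rows are not independent.

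Ptprc had 3 transcript rows at chr1:138062859-138068426, chr1:138062859-138068107 and chr1:138062859-138068035. Their log2 fold changes in the authors' deposited table were 1.02 ± 0.32, 1.11 ± 0.35 and 1.13 ± 0.35, with unadjusted p-values of 0.00162, 0.00136 and 0.00115. S100a8 had 1 row at chr3:90669071-90669462 with 1.36 ± 0.47 log2 in the authors' deposited table (p = 0.00407), at a low mean abundance of 1.86 log2 CPM. These are the larger MBD differences of the set, and both genes lie where listed regions are nearly all above 0: when regions are split into 4 equal bins by abundance, 91.9% were in the bin of Ptprc and 98.4% in that of S100a8.

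Itgam had 2 rows with equal values, at chr7:128062640-128067321 and chr7:128062640-128067318, of 0.41 ± 0.16 log2 in the authors' deposited table. Its p of 0.00877 placed it 2453rd of 2455 listed exon regions, at the very edge of the list. C1qc at chr4:136889802-136890855 was the 1 exon region of the set below 0, at -0.44 ± 0.16 log2 in the authors' deposited table (p = 0.00598). It lies in the same abundance bin as Itgam, where 64.9% of listed regions were above 0. So the 4 exon genes did not share a direction.

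As listed, the interval has the width of only a part of each gene. That is 8.38% of the RefSeq span for the longer Itgam row, 4.59% to 4.93% for Ptprc, 33.6% for C1qc and 40.7% for S100a8. Of 1966 exon regions matched to a gene, 59.3% began within 5 bases of the lowest coordinate of that gene, and all 2455 were given on the plus strand. By those coordinates, the interval would stand at the 3′ end of Ptprc and C1qc, which lie on the minus strand. The Ptprc rows share a start and differ in width by transcript, so the interval may not show where capture was counted. The sources used here do not say whether it marks all bases that were counted. Over the 6 immune lists, 19 genes had a listed exon region, 17 above 0 and 2 below, beside 66.8% above 0 over 1651 genes counted once. Their median log2 CPM was 3.20, against 3.99 over all listed genes, and listed regions of lower abundance were more often above 0.

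**Figure D3:**
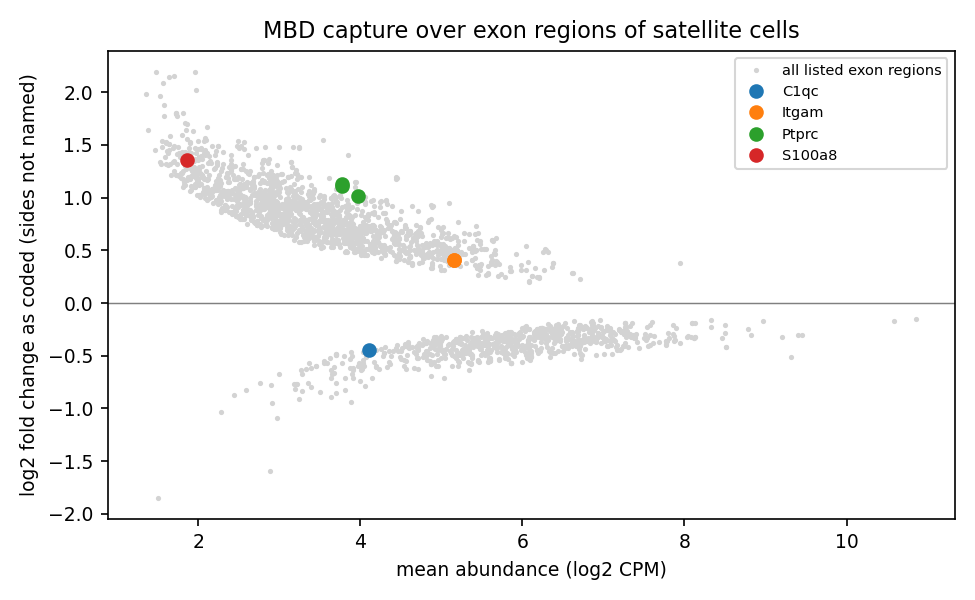
Log2 fold change of MBD capture as coded against mean abundance in log2 CPM, with each listed exon region as a grey point and the regions of the set in colour. Regions of low abundance lie almost all above 0 and those of high abundance mostly below it, with S100a8 and Ptprc in the upper band, Itgam on its lower edge and C1qc below 0.

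Both MBD islands listed for Fcgr3 lie over a cluster of transfer RNA genes upstream of the start of Fcgr3 that the authors used for MBD. The first also overlaps the 5′ end of the longer Fcgr3 span in RefSeq, at 171065915. The island at chr1:171063940-171065960 stood at 0.82 ± 0.23 log2 in the authors' deposited table (p = 0.000431, 8.11 log2 CPM). The island at chr1:171079182-171081209 stood at 0.90 ± 0.27 log2 in the authors' deposited table (p = 0.000945, 7.16 log2 CPM). The authors place them 6557 and 21806 bases before the Fcgr3 start, counted to the far edge of each island, and call both distal intergenic. The near edges lie 4.537 and 19.779 kb from that start. In the abundance bin of the first, 23.8% of listed islands were above 0, and in that of the second all were. Each overlaps 3 transfer RNA genes in RefSeq, of which n-TEctc5, n-TGtcc1 and n-TDgtc3 lie in the first and n-TEctc7, n-TGtcc4 and n-TDgtc6 in the second. They were the only 2 of 84 listed islands within 200 bases of a transfer RNA gene. From 171033942 to 171111515 on chromosome 1, 25 such genes span 77.6 kb. Transfer RNA genes of one kind are near copies of one another, so how reads were shared among them, and hence each island's value, is uncertain.

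The first island also holds Mir6546, a microRNA gene at chr1:171064591-171064652 on the minus strand, whose mature RNAs are shown, from RefSeq GRCm38.p6, because this is the annotated non-coding gene under the island besides the transfer RNAs. Capitals mark the seed, bases 2 to 8.
mmu-miR-6546-3p: gAGCGAAGcccaagcgccaga
mmu-miR-6546-5p: aGGCGCCUcugagcuugugcuugu
The tables used here give no expression value for either, and the 2 seeds differ.

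**Figure D4:**
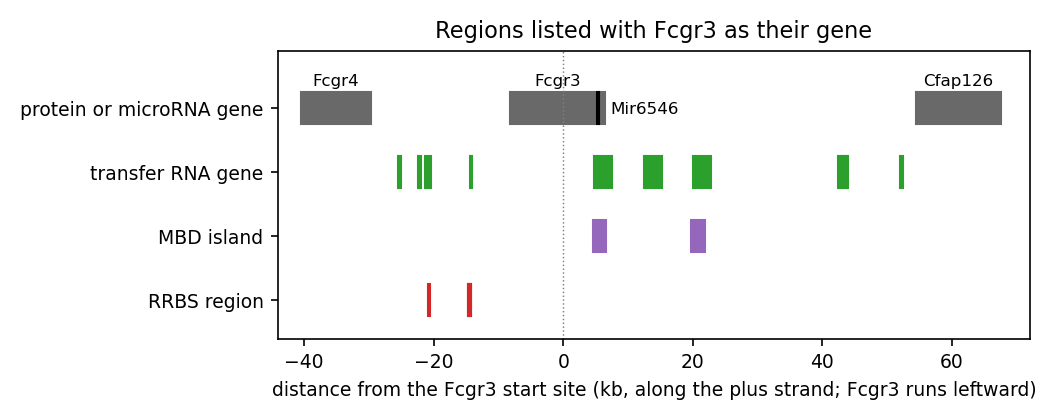
Map of the regions listed under Fcgr3, as distance in kb from the start that the authors used for MBD, with Fcgr3 running leftward. The authors' RRBS distances are counted from another start of Fcgr3, so they differ from those on this map. Narrow features are widened to be visible, and the black bar is Mir6546. Both MBD islands lie right of the start over transfer RNA genes, and the RRBS regions lie left of the end of Fcgr3, near other transfer RNA genes.

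RRBS of satellite cells listed 7 regions of the set, 3 of Fcgr3, 3 of Cx3cl1 and 1 of Coro1a. The tables compare a group 1 with a group 2 and do not say which samples these are, so differences in methylation are given in percentage points as group 1 minus group 2, and tied to no treatment. The levels of the unnamed groups were not used. All 3 tables draw, by the design, on one set of 24 satellite cell libraries, so rows of one region in several tables are not separate evidence. Per the file headers the p-values are medians, they are unadjusted, and the sources used here do not say what spread they measure.

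Cx3cl1 had a region at its start, chr8:94772283-94772359, inside the gene just past the window printed above and within the 1 kb the authors call promoter. Its difference was -0.235 points in the authors' deposited table for radiation (p = 7.95e-10). The same interval differed by -0.165 points in the authors' deposited table for diet (p = 1.06e-07). Both differences at the start of the chemokine gene are therefore a small fraction of a point, whatever their p-values. A region past the gene end, chr8:94784794-94784833, differed by -26.7 points in the authors' deposited table for radiation (p = 0.000451). It overlaps Gm51543 in RefSeq, so its tie to Cx3cl1 rests on the authors' gene label. Both radiation regions of Cx3cl1 had group 1 below group 2, as did 51.9% of the 9827 listed regions, and the median absolute difference there was 13.8 points.

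Fcgr3 had 2 places past its 3′ end, both near transfer RNA genes. In the authors' deposited table for radiation, chr1:171044742-171044789 differed by 1.94 points (p = 1.51e-10). In the authors' deposited table for diet, the shorter chr1:171044742-171044776 differed by -26.4 points (p = 0.000232). Since the groups are not named, the signs of these rows cannot be compared between tables, and the diet row had the larger size. The radiation interval lies 196 bases and the diet interval 209 bases from n-TGgcc4, a transfer RNA gene. A further diet region, chr1:171038469-171038506, differed by -2.57e-17 points in the authors' deposited table, which is 0 within rounding, with p = 1.97e-08. It lies 108 bases from n-TLcag3, and shows that a small p in these tables can go with no difference in median methylation. Of the 3 diet regions of the set, each had group 1 below group 2 or equal to it within rounding, where 48.1% of 9617 listed diet regions had it below. The median absolute difference in the diet table was 5.26 points.

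Coro1a had a single CpG inside the gene at chr7:126701593, 2627 bases from the annotated start, in the interaction table. It differed by -67.1 points in the authors' deposited table (p = 1.14e-05). That was the lowest of 1057 listed differences, and 1 region had a larger absolute difference. Under 5 points of difference was seen in 65.6% of the listed interaction regions, the median absolute difference was 1.06 points, and 55.2% had group 1 below group 2. A wide spread is a feature of this table, in which 252 regions exceeded 50 points. What the 2 groups of an interaction are is not named, and a single CpG rests on a coverage that is unknown.

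**Figure D5:**
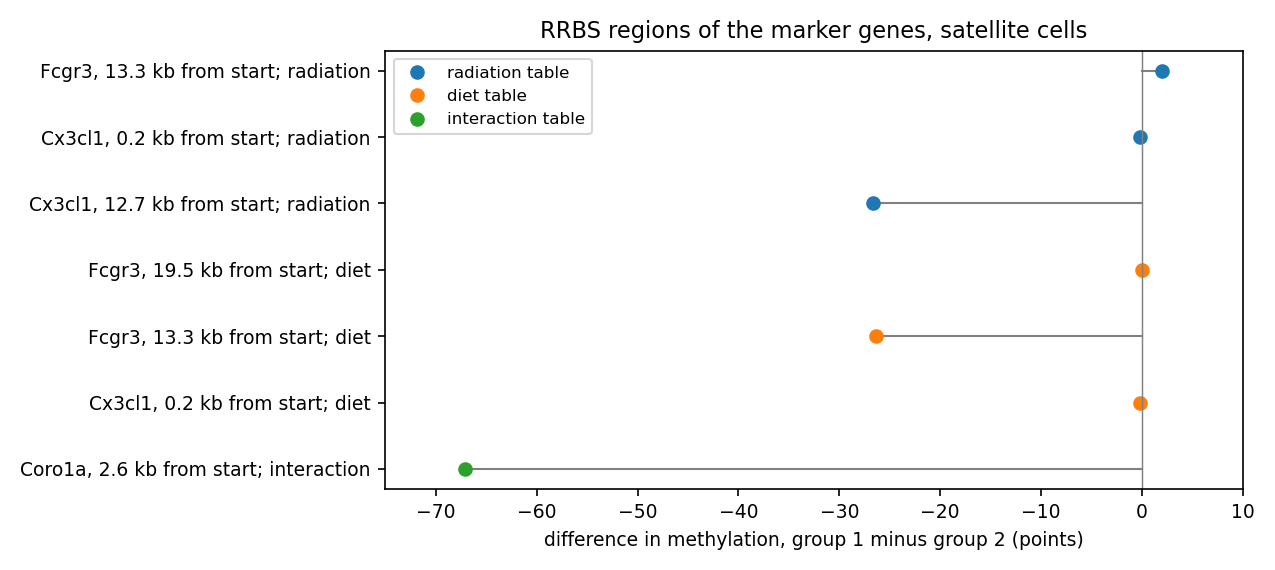
Difference in methylation in percentage points, group 1 minus group 2, for the 7 RRBS regions of the set, with colours for the radiation, diet and interaction tables and distances as the authors annotated them. Coro1a at -67.1, the distal Cx3cl1 region at -26.7 and a diet row of Fcgr3 at -26.4 stand far from 0, and the other 4 rows lie within 2 points of it.

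In the stromal vascular fraction, 0 of 14697 listed RRBS regions carried a gene of the set, in any of the 3 comparisons. A region is absent if it was not covered or not listed. The 6 immune lists had regions there for 8 genes in the radiation table, with 13 regions of which 8 were higher in group 1, for 16 genes in the diet table, with 13 of 24 so, and for 3 genes in the interaction table, with 1 of 3 so. In satellite cells the same lists had 12 genes with 10 of 20 regions higher in group 1 for radiation, 11 genes with 5 of 13 for diet and 5 genes with 1 of 6 for the interaction. Over all listed satellite cell regions, group 1 was below group 2 in 51.9% for radiation, 48.1% for diet and 55.2% for the interaction. The share over all listed stromal vascular regions was not computed, so the counts there are a description.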

How the data were processed

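Values are the authors' comparison statistics, on mm10 per the submitters' processing notes. In those notes, the submitters name edgeR and featureCounts for RNA and MBD and Bismark 0.14.4 for RRBS. Per the file headers, the deposited RNA and MBD tables hold log2 fold changes, mean log2 CPM, a likelihood ratio score and a p-value, with an adjusted p for RNA. The deposited RRBS tables hold a median p-value and a signed methylation difference, a score on the 0 to 1 scale given here in points. Columns of the unnamed groups' levels were not used. Headings of the RNA tables for single diets name irradiated against control.

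Approximate standard errors are the absolute log2 fold change divided by the square root of the likelihood ratio. A check on simulated data built its likelihood ratio from that same relation. It therefore tested the arithmetic and not how good the approximation is at low counts. The number tested was recovered from adjusted p, rank and p. For 13 genes in all 3 tables, the value over both diets was the sum of those on each diet (largest deviation 3.11e-15). Ranges for unlisted genes assume equal errors on both diets. Over 309 genes, the error over both diets divided by that on chow was 1.37 to 1.45 (median 1.41), as equal errors give.

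Named genes were the 9 members and, from 10 fixed lists, each gene under an adjusted p of 0.05. Members and lists were chosen with earlier results of these data known. No test was run. The design allowed for counts of single samples, and 0 such columns were present. Replicates are samples the labels name separately. Nothing says they came from separate animals, so the p-values may measure technical spread. Python 3.11.15 and pandas 2.3.3 were used.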

Additional observations from a re-analysis of the deposited data

How the results depend on the processing

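No paired analysis was possible because the tables hold no values of single samples, and leaving out each replicate was not run for the same reason. With an adjusted p under 0.01 in place of 0.05, the genes of the set listed over both diets numbered 1 (Cx3cl1) in place of 3, and on chow 0 in place of 1. With 0.1, chow gave 2, adding Irf5, both diets stayed at 3, the high fat diet at 0, and the immune lists gave 7 in place of 6. Matching by Ensembl identifier gave the same 3 and 6. Requiring an absolute log2 fold change of at least 1 left 4 of 9 MBD regions (Ptprc and S100a8), and counting each distinct interval once left 9. Each gene once, an alternative chosen after seeing the data, gave 5. A difference of at least 5 points left 3 of 7 RRBS regions, and keeping those within 10 kb of the start or in the gene left 3. Dropping those within 200 bases of a transfer RNA gene, also chosen after seeing the data, left 5. Depth is unknown, so low values such as the 0.20 log2 CPM of Irf5 and the single CpG of Coro1a carry an error that cannot be given.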
